A study of Arabidopsis thaliana with 12 samples.

Results

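The 10 genes described here encode enzymes and transcription factors of flavonoid and anthocyanin synthesis in Arabidopsis thaliana: CHS, CHI, F3H, F3'H, FLS1, DFR, LDOX, MYB12, MYB111 and PAP1. They were taken by locus code from a table of 33602 genes, with earlier results of these data known. Messenger RNA came from whole plants 2 weeks old, grown in soil. The 4 groups of 3 libraries were wild type Col-0 in regular soil (Col-0 control), Col-0 in soil treated with YC4-R4 (Col-0 YC4-R4), the rdd mutant in regular soil (rdd control) and rdd with YC4-R4 (rdd YC4-R4). The rdd mutant is a triple mutant in the Col-0 background, named after ROS1, DML2 and DML3, which encode DNA demethylases, and the series title speaks of beneficial bacteria of the root zone and of myo-inositol. No other allele, agent or promoter-driven transgene is named for any group, and the series design calls the 3 libraries of a group biological replicates without saying how many plants went into each.

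Flavonoids are made from phenylalanine. Chalcone synthase (CHS) joins the phenylpropanoid product coumaroyl-CoA to malonyl-CoA, chalcone isomerase (CHI) closes the ring, and the hydroxylases F3H and F3'H make dihydroflavonols. These are then used by flavonol synthase (FLS1), which gives flavonols, or by DFR and LDOX, which lead to the red and purple anthocyanins and to seed coat tannins. In Arabidopsis the factors MYB12 and MYB111 activate the early genes and FLS1, while PAP1, with bHLH partners, activates the late genes. Flavonols and anthocyanins absorb ultraviolet light and accumulate under strong light and several stresses.

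Library totals ran from 14465710 to 20281801 counts. The biological coefficient of variation, the spread between replicates beyond counting noise, was 2.58% to 3.22% in 3 groups and 5.84% in rdd YC4-R4. TMM factors, which scale each library, were 0.941 to 0.954 for Col-0 control and 1 to 1.04 for the other 9 libraries. Of the demethylase genes, ROS1 stood at 78.3 to 86.1 CPM (TMM-normalized counts scaled to a common library total) in Col-0 control and 77.3 to 81.3 CPM in rdd control, and DML2 at 19.6 to 20.4 and 18.6 to 22.8 CPM, neither called between the genotypes in either soil. With YC4-R4, ROS1 was at 68.2 to 71.3 CPM in Col-0 and 72.7 to 76.1 CPM in rdd, without overlap (edgeR adjusted p = 0.105). DML3 was lower in rdd control (3.41 to 3.67 CPM) than in Col-0 control (4.50 to 5.89 CPM; -0.50 ± 0.20 on the log2 scale, edgeR adjusted p = 0.0431), and with YC4-R4 it was at most 1.07 CPM in both genotypes, which overlapped. The groups are named as labelled, and every direction is between libraries labelled Col-0, rdd, control or YC4-R4. In whole plants, fewer cells that express a gene and less RNA per cell cannot be told apart.

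The genes lie on 5 chromosomes, with no pair of them side by side. In TAIR10.1, CHS (AT5G13930, RefSeq symbol TT4) spans chr5:4488476-4490264 on the forward strand with 2 exons, and CHI (AT3G55120, TT5) spans chr3:20430059-20431597 on the reverse strand with 4 exons. F3H (AT3G51240) spans chr3:19025192-19026872, F3'H (AT5G07990, TT7) chr5:2560328-2563137 and FLS1 (AT5G08640) chr5:2803833-2805606, all on the forward strand. DFR (AT5G42800) spans chr5:17164093-17166032 and LDOX (AT4G22880) chr4:12004726-12006209, both on the reverse strand. Among the regulators, MYB12 (AT2G47460) spans chr2:19476326-19479597 on the forward strand, and MYB111 (AT5G49330, chr5:19998823-20001572) and PAP1 (AT1G56650, chr1:21233555-21235292) lie on the reverse strand. F3H shares 1415 exonic bases with AT3G51238, annotated on the opposite strand, and the strand setting of the counting is not given in the sources used here, so reads of the pair may not be told apart. CHS overlaps its neighbour AT5G13940 by 2 bases.

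The sequence before the annotated start is shown for the 4 enzyme genes that moved together between the groups (CHS, CHI, F3H and FLS1), for PAP1, which moved with genotype alone among the tests below, and for DFR. Each is the 250 bases upstream of the RefSeq gene start, 5′ to 3′ on the gene's strand, in TAIR10.1. Capitals mark CACGTG, the G-box known to be bound by bZIP factors such as HY5, and its core ACGT. The windows are chr5:4488226-4488475 (CHS, forward strand), chr3:20431598-20431847 (CHI, reverse), chr3:19024942-19025191 (F3H, forward), chr5:2803583-2803832 (FLS1, forward), chr5:17166033-17166282 (DFR, reverse) and chr1:21235293-21235542 (PAP1, reverse).
CHS: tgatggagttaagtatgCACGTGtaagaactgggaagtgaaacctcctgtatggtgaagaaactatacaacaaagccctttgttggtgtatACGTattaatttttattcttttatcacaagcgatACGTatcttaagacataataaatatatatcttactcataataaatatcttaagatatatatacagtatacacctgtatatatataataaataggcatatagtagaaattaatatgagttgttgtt
CHI: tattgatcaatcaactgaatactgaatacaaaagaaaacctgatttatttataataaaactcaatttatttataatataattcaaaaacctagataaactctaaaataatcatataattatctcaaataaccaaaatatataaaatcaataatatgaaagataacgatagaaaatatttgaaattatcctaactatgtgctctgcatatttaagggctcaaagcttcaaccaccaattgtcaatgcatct
F3H: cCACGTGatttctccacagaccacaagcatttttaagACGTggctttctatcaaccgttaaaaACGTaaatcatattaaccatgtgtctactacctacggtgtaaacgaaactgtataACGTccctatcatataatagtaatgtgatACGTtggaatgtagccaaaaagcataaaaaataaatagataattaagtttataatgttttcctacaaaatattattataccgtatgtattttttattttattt
FLS1: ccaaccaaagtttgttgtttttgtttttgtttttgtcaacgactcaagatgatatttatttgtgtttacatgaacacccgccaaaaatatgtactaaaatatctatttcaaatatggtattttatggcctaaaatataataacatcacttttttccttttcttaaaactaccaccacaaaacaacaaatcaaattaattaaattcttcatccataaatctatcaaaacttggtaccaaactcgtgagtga
DFR: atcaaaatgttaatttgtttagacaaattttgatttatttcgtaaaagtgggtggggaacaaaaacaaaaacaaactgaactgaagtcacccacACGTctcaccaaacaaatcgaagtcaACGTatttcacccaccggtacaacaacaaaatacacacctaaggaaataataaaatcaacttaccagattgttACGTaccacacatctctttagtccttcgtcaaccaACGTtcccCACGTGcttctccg
PAP1: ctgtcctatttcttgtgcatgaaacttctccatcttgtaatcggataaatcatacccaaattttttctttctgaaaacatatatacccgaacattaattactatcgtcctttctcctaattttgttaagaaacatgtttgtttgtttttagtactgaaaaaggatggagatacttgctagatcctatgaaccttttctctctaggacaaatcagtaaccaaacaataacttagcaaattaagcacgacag

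CACGTG was found in 4 of the 10 windows: CHS (233 bases upstream), F3H (249 bases), DFR (14 bases) and MYB12 (118 bases). Of 27443 windows of the same length, 6.49% held it. ACGT, which lies within every CACGTG, was found in those 4 windows and in that of MYB111, and in 44.1% of all windows. The windows of F3H and DFR each held 5 ACGT matches and that of CHS held 3. MYB-type motifs, searched like the others on both strands, were in 0 of the 10 windows. Of all windows, ACCTACC was in 1.16%, ACCAACC in 2.69% and ACCTAAC in 2.46%. The 4 enzyme genes that moved together were thus not alike in these letters, since CHI and FLS1 held neither CACGTG nor ACGT in this window.

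Per kilobase of exon, CHS had the highest level of the 10 genes in every group. In Col-0 control it stood at 20.7 ± 1.05 CPM per kb (SD, n = 3, as for all such values). F3H (6.62 ± 0.955), FLS1 (6.38 ± 0.258) and CHI (6.24 ± 0.657) followed at levels that did not differ beyond their spread. DFR (2.21 ± 0.282) and LDOX (1.99 ± 0.0924) came next and were also within their spread, as were PAP1 (1.63 ± 0.124) and MYB111 (1.5 ± 0.289). F3'H stood at 0.746 ± 0.158 CPM per kb and MYB12 at 0.121 ± 0.0640. The order below CHS changed between groups: in rdd control PAP1 (0.492 ± 0.189) was below F3'H (1.04 ± 0.174), and in rdd YC4-R4 MYB111 (3.00 ± 0.339) stood within the spread of LDOX (2.79 ± 0.420) and DFR (2.75 ± 0.249). From here on, levels are in CPM without division by length.

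**Figure D1:**
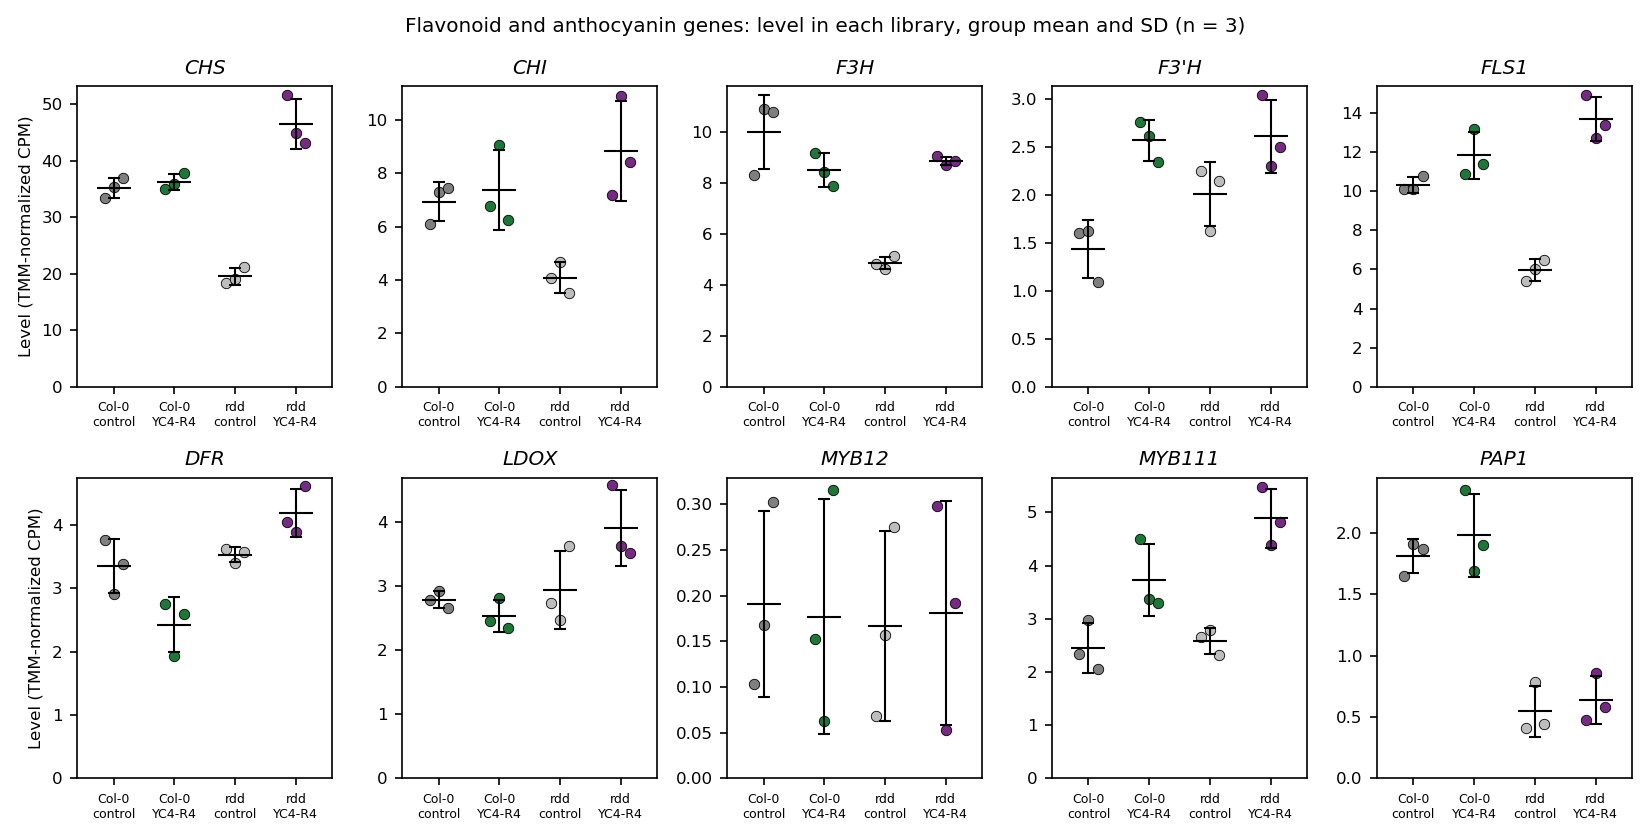
Levels of the 10 genes in each library in TMM-normalized CPM (y axis, from 0, 1 scale per gene) for the 4 groups (x axis). Points are libraries, the long bar is the group mean and the whiskers are 1 SD (n = 3). CHS, CHI, F3H and FLS1 were lowest in all 3 rdd control libraries, PAP1 was low in all 6 rdd libraries, and MYB12 was at or under 0.316 CPM.

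In regular soil, 5 of the 10 genes were lower in rdd than in Col-0 (CHS, CHI, F3H, FLS1 and PAP1) and 0 were higher. Over all 20651 tested genes, 23.0% were lower and 20.9% higher in this comparison. With YC4-R4, 5 genes rose in rdd (CHS, CHI, F3H, FLS1 and MYB111) and 0 fell, where 15.1% of all tested genes rose and 17.1% fell. In Col-0, 2 genes rose with YC4-R4 (F3'H and MYB111) and 0 fell, where 12.9% of all tested genes rose and 16.9% fell. In YC4-R4 soil, 3 genes were higher in rdd than in Col-0 (CHS, DFR and LDOX) and PAP1 was lower, against 14.3% higher and 14.4% lower over all tested genes. A gene was called where edgeR's quasi-likelihood test gave an adjusted p (Benjamini-Hochberg, taken over the 20651 genes) under 0.05. MYB12 did not pass the filter on low counts, so 9 genes were tested.

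These comparisons share libraries: rdd control enters both its difference from Col-0 control and the YC4-R4 effect in rdd, so a low level there lowers the first value and raises the second. The median log2 fold change of the 9 tested genes was -0.75 for rdd against Col-0 in control and 0.87 for YC4-R4 in rdd. It was 0.09 for YC4-R4 in Col-0 and 0.27 for rdd against Col-0 in YC4-R4. The median over all tested genes was between 0.0025 and 0.0091 in these comparisons. Summed over the 10 genes, the level was 70.2 to 77.4 CPM in Col-0 control and 76.3 to 79.2 with YC4-R4, and in rdd it was 44.5 to 48.8 in control and 90.0 to 101 with YC4-R4, with no overlap of rdd control or rdd YC4-R4 with any other group.

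**Figure D2:**
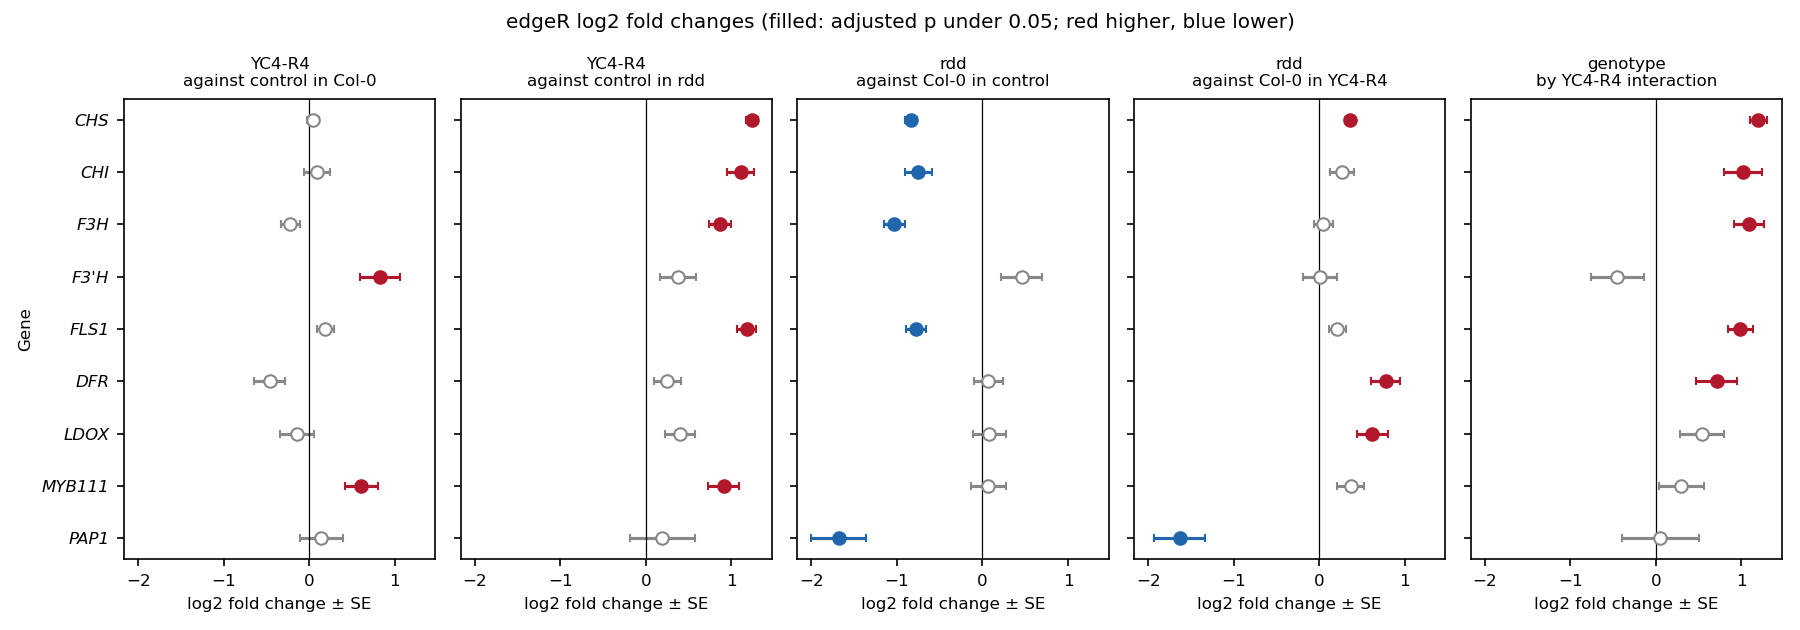
The edgeR log2 fold change (x axis) with its SE for the 9 tested genes (y axis) in the 5 comparisons, 1 panel each; filled points have an adjusted p under 0.05, red for higher and blue for lower. CHS, CHI, F3H and FLS1 lie at -0.75 or below for rdd against Col-0 in control and at 0.87 or above for YC4-R4 in rdd, while PAP1 is the lowest point in both genotype panels.

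The entry enzyme CHS was lowest in rdd control and highest in rdd YC4-R4. It stood at 33.4, 35.4 and 37.0 CPM in Col-0 control and 35.0, 35.9 and 37.9 with YC4-R4, and in rdd at 18.4, 19.1 and 21.3 in control and 51.6, 45.0 and 43.1 with YC4-R4. The Col-0 groups overlapped, and both rdd groups lay apart from them on opposite sides. CHS was 1.79-fold lower in rdd than in Col-0 in control (log2 -0.84 ± 0.07 SE; edgeR, Benjamini-Hochberg adjusted p = 3.7e-12). It rose 2.36-fold with YC4-R4 in rdd (1.24 ± 0.07; edgeR adjusted p = 6.9e-17), where in Col-0 the value was 0.04 ± 0.07 (edgeR adjusted p = 0.688). In YC4-R4 soil it was 1.28-fold higher in rdd than in Col-0 (0.36 ± 0.06; edgeR adjusted p = 3.4e-05).

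CHI, which turns the CHS product into naringenin, followed the same order at a lower level and with more spread. It stood at 6.10, 7.29 and 7.43 CPM in Col-0 control and 6.79, 9.06 and 6.26 with YC4-R4, and in rdd at 4.09, 4.67 and 3.52 in control and 7.20, 10.9 and 8.41 with YC4-R4. The rdd control libraries were below all 9 others, which overlapped each other. CHI was at -0.75 ± 0.16 (log2) for rdd against Col-0 in control (edgeR adjusted p = 2.7e-04) and rose by 1.11 ± 0.16 with YC4-R4 in rdd (edgeR adjusted p = 5.0e-07). With YC4-R4 in Col-0 it was at 0.09 ± 0.15 (edgeR adjusted p = 0.707). Between rdd and Col-0 in YC4-R4 soil it was at 0.27 ± 0.14 (edgeR adjusted p = 0.161), and was called without replicate 2 of Col-0 YC4-R4 (0.44, adjusted p = 0.0365) or replicate 1 of rdd YC4-R4 (0.39, adjusted p = 0.0365).

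F3H, the hydroxylase that forms dihydroflavonols, was also low in rdd control, but with YC4-R4 it stood in rdd at the level of Col-0. It stood at 8.32, 10.9 and 10.8 CPM in Col-0 control and 9.20, 8.44 and 7.90 with YC4-R4, and in rdd at 4.84, 4.62 and 5.12 in control and 9.05, 8.70 and 8.85 with YC4-R4. Again the 3 rdd control libraries were apart and the other groups overlapped. F3H was 2.05-fold lower in rdd in control (-1.03 ± 0.12; edgeR adjusted p = 1.3e-08) and rose 1.82-fold with YC4-R4 in rdd (0.87 ± 0.13; edgeR adjusted p = 9.1e-07). In YC4-R4 soil rdd and Col-0 differed by 0.05 ± 0.11 (edgeR adjusted p = 0.781). With YC4-R4 in Col-0 it was at -0.22 ± 0.11 (edgeR adjusted p = 0.149), and was called lower without Col-0 control replicate 1 (-0.34, adjusted p = 0.0305).

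AT3G51238, the locus on the other strand of F3H, had 139 counts over all 12 libraries against 1724 for F3H. It held 63 counts over Col-0 control, 50 over Col-0 YC4-R4 and 13 over each rdd group. Unlike F3H it was low in both rdd groups: for rdd against Col-0 it was at -2.19 ± 0.41 in control and -2.05 ± 0.42 with YC4-R4 (edgeR adjusted p = 2.9e-05 and 2.5e-04). With YC4-R4 in rdd, where F3H rose, AT3G51238 was at -0.12 ± 0.57 (edgeR adjusted p = 0.905). The part of this overlap in the F3H values was not tested.

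F3'H, which adds the hydroxyl group that separates quercetin and cyanidin from their simpler relatives, differed from the other early enzymes. It stood at 1.6, 1.63 and 1.09 CPM in Col-0 control and 2.76, 2.62 and 2.34 with YC4-R4, and in rdd at 2.25, 1.63 and 2.15 in control and 3.04, 2.30 and 2.50 with YC4-R4. Both YC4-R4 groups lay above the control group of their genotype. The rise with YC4-R4 passed the test in Col-0, where it was 1.78-fold (0.83 ± 0.23; edgeR adjusted p = 0.00475). In rdd it was at 0.38 ± 0.21 (edgeR adjusted p = 0.178), and the difference between the genotypes was -0.45 ± 0.31 (interaction, edgeR adjusted p = 0.307). In control soil rdd against Col-0 gave 0.46 ± 0.24 (edgeR adjusted p = 0.123), so this gene was not among those lower in rdd.

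FLS1, the main flavonol synthase, followed CHS. It stood at 10.1, 10.1 and 10.8 CPM in Col-0 control and 10.9, 13.2 and 11.4 with YC4-R4, and in rdd at 5.39, 6.03 and 6.5 in control and 14.9, 12.7 and 13.4 with YC4-R4. The rdd control libraries were below all others, and the rdd YC4-R4 libraries overlapped Col-0 YC4-R4 through its replicate 2. FLS1 was 1.72-fold lower in rdd in control (-0.78 ± 0.12; edgeR adjusted p = 6.7e-07) and rose 2.27-fold with YC4-R4 in rdd (1.18 ± 0.11; edgeR adjusted p = 5.5e-11). In Col-0 the YC4-R4 libraries lay just above the control libraries, at 0.19 ± 0.10 (edgeR adjusted p = 0.162). In YC4-R4 soil rdd against Col-0 was at 0.21 ± 0.10 (edgeR adjusted p = 0.115), and was called without Col-0 YC4-R4 replicate 2 (0.29, adjusted p = 0.0469).

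The late genes of the anthocyanin branch did not fall in rdd control. DFR, which reduces dihydroflavonols, stood at 3.77, 2.92 and 3.38 CPM in Col-0 control and 2.76, 1.94 and 2.59 with YC4-R4, and in rdd at 3.62, 3.41 and 3.58 in control and 4.05, 3.90 and 4.62 with YC4-R4. Col-0 YC4-R4 was the lowest group and rdd YC4-R4 the highest, with no overlap between the 2, and the control groups overlapped between them. In control soil rdd against Col-0 was at 0.07 ± 0.17 (edgeR adjusted p = 0.777), and in YC4-R4 soil DFR was 1.71-fold higher in rdd (0.78 ± 0.17; edgeR adjusted p = 6.8e-04). With YC4-R4 it was at -0.46 ± 0.18 in Col-0 (edgeR adjusted p = 0.0554) and 0.25 ± 0.16 in rdd (edgeR adjusted p = 0.256). The Col-0 value was called lower without Col-0 control replicate 2 (-0.55, adjusted p = 0.0396) or Col-0 YC4-R4 replicate 1 (-0.57, adjusted p = 0.0475).

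LDOX, which makes the coloured anthocyanidins, stood at 2.79, 2.92 and 2.66 CPM in Col-0 control and 2.45, 2.81 and 2.34 with YC4-R4, and in rdd at 2.73, 2.47 and 3.63 in control and 4.58, 3.63 and 3.51 with YC4-R4. The rdd YC4-R4 libraries were above both Col-0 groups and overlapped rdd control through its replicate 3. LDOX was 1.53-fold higher in rdd in YC4-R4 soil (0.62 ± 0.18; edgeR adjusted p = 0.00952), a call lost without rdd YC4-R4 replicate 1 (0.49, adjusted p = 0.0668). In control soil rdd against Col-0 was at 0.08 ± 0.19 (edgeR adjusted p = 0.769). With YC4-R4 in rdd it was at 0.40 ± 0.18 (edgeR adjusted p = 0.0863), called without rdd control replicate 3 (0.59, adjusted p = 0.0257), and in Col-0 at -0.14 ± 0.20 (edgeR adjusted p = 0.637).

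FLS1 and DFR use the same substrates, so the ratio of their counts was taken within each library, a measure chosen after their values were seen. FLS1 had 2.67 to 3.46 times the counts of DFR in Col-0 control and 3.94 to 6.84 times with YC4-R4, and in rdd 1.49 to 1.82 times in control and 2.91 to 3.68 times with YC4-R4. The YC4-R4 libraries were above the control libraries of the same genotype in both genotypes, and the rdd libraries were below the Col-0 libraries in both soils. On the log2 scale the ratio was higher with YC4-R4 by 0.67 in Col-0 (1.63 ± 0.19 to 2.30 ± 0.42, SD, n = 3) and by 0.95 in rdd (0.75 ± 0.15 to 1.71 ± 0.17). Each of these comparisons gave an exact two-sided permutation p of 0.1, the smallest that 3 libraries against 3 allow.

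**Figure D3:**
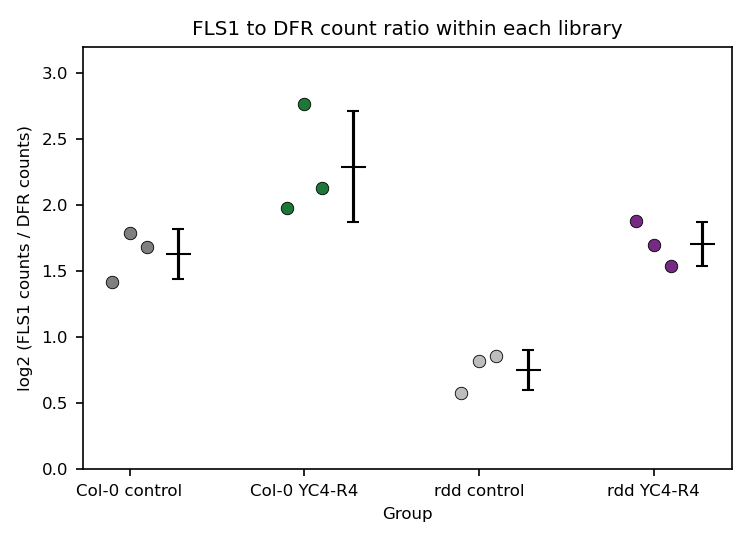
The log2 ratio of FLS1 counts to DFR counts in each library (y axis) by group (x axis); the bar beside the points is the mean and its whiskers are 1 SD (n = 3). Mean values are 1.63 and 2.30 in Col-0 without and with YC4-R4, and 0.75 and 1.71 in rdd.

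Among the regulators, MYB111, an activator of flavonol synthesis, was higher with YC4-R4 in both genotypes. It stood at 2.33, 2.97 and 2.05 CPM in Col-0 control and 4.50, 3.37 and 3.29 with YC4-R4, and in rdd at 2.66, 2.78 and 2.31 in control and 5.48, 4.38 and 4.81 with YC4-R4. The YC4-R4 libraries were above all control libraries, and the genotypes overlapped in each soil. MYB111 rose 1.88-fold in rdd (0.91 ± 0.18; edgeR adjusted p = 8.0e-05) and 1.53-fold in Col-0 (0.61 ± 0.19; edgeR adjusted p = 0.0109). The Col-0 call was lost without Col-0 control replicate 3 (0.51, adjusted p = 0.0650) or Col-0 YC4-R4 replicate 1 (0.44, adjusted p = 0.133). The genotypes did not pass the test for a difference in this rise (0.30 ± 0.26; edgeR adjusted p = 0.421). In control soil rdd against Col-0 was at 0.07 ± 0.20 (edgeR adjusted p = 0.798), where CHS, CHI, F3H and FLS1 were lower. In YC4-R4 soil it was at 0.37 ± 0.16 (edgeR adjusted p = 0.0865), called without Col-0 YC4-R4 replicate 1 (0.55, adjusted p = 0.0310).

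PAP1, the MYB activator of anthocyanin synthesis, was low in both rdd groups. It stood at 1.65, 1.91 and 1.87 CPM in Col-0 control and 2.35, 1.69 and 1.90 with YC4-R4, and in rdd at 0.409, 0.787 and 0.441 in control and 0.476, 0.854 and 0.577 with YC4-R4. All 6 rdd libraries were below all 6 Col-0 libraries, and the soils overlapped within each genotype. The counts behind these levels were small, 6 to 16 per rdd library and 27 to 46 per Col-0 library. PAP1 was 3.21-fold lower in rdd in control (-1.68 ± 0.32; edgeR adjusted p = 3.6e-05) and 3.10-fold lower in YC4-R4 soil (-1.63 ± 0.30; edgeR adjusted p = 4.8e-05). It was lower in both soils, as were 1496 of all tested genes, or 7.24%. With YC4-R4 it was at 0.14 ± 0.25 in Col-0 and 0.19 ± 0.38 in rdd (edgeR adjusted p = 0.713 and 0.749). DFR and LDOX, known targets of PAP1, were not lower in rdd in either soil, and the part of PAP1 in their levels was not tested.

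MYB12, the other flavonol activator of the set, was close to the detection limit. It had 1 to 5 counts per library and 38 over all 12 libraries, with group sums of 10, 9, 9 and 10 in the order used above. With no filter on low counts its 5 log2 values lay between -0.11 and 0.13, with an SE of 0.82 or more. Differences of MYB12 between the groups were not detectable at this depth.

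The YC4-R4 effect differed between the genotypes for 5 of the 9 tested genes, all of them more positive in rdd, where 16.2% of all tested genes were more positive in rdd and 14.4% less. The interaction, the log2 effect in rdd less the same effect in Col-0, was 1.2 ± 0.10 for CHS, 1.02 ± 0.22 for CHI and 1.09 ± 0.17 for F3H (edgeR adjusted p = 1.9e-12, 3.2e-04 and 3.6e-06). For FLS1 it was 0.99 ± 0.15 (edgeR adjusted p = 2.5e-06), and for DFR 0.71 ± 0.24 (edgeR adjusted p = 0.0249). Only for CHS, CHI, F3H and FLS1 did the effect in rdd itself pass the test. The DFR call was lost with DESeq2 (adjusted p = 0.0787) and without Col-0 control replicate 1 (0.61, adjusted p = 0.0817), Col-0 YC4-R4 replicate 2 (0.58, adjusted p = 0.0871), rdd control replicate 2 (0.68, adjusted p = 0.0512) or replicate 3 of rdd YC4-R4 (0.63, adjusted p = 0.0706). LDOX was at 0.54 ± 0.26 (edgeR adjusted p = 0.127), called without rdd control replicate 3 (0.73, adjusted p = 0.0460), and PAP1 at 0.05 ± 0.45 (edgeR adjusted p = 0.950). The median over the 9 genes was 0.71, against 0.0036 over all tested genes.

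Across the 12 libraries, FLS1 was the gene of the set most like CHS, with a Pearson correlation of log2 CPM of 0.977. F3H (0.870) and CHI (0.855) followed, MYB111 was at 0.626, and LDOX (0.399), PAP1 (0.318), F3'H (0.263) and DFR (0.038) were far less like it. By Spearman rank correlation the order below FLS1 (0.916) changed. CHI was at 0.755, MYB111 at 0.636, F3H at 0.552, F3'H at 0.476, LDOX at 0.371, DFR at 0.252 and PAP1 at 0.168. The libraries fall into 4 groups with different CHS levels, so these values describe the groups more than the libraries within them. Outside the set, the genes most like CHS among 3067 with enough level and spread were the receptor-like kinase gene AT5G67280 (0.975), AT5G17700 (0.971), AT3G14760 (0.970) and AT5G52780 (0.967). The glycosyltransferase gene UGT71B1 (0.963), AT2G31560 (0.962), the alpha-expansin EXPA10 (0.958) and CAD9 (0.956), annotated as a cinnamyl alcohol dehydrogenase, came next. CAD9 stood at 181, 168, 106 and 186 CPM in the order of groups used above, and UGT71B1 at 34.1, 33.8, 18.9 and 37.3 CPM. Both were lowest in rdd control, which follows from choosing them by their likeness to CHS in these libraries.

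Other genes of the pathway were followed in 7 lists. Over all tested genes, 23.0% were lower and 20.9% higher for rdd in control. For YC4-R4 in rdd 15.1% were higher and 17.1% lower, and for YC4-R4 in Col-0 12.9% and 16.9%. For the interaction 16.2% were higher and 14.4% lower. The list counts here and below, those of the organ markers included, stand beside these shares. In the list of flavonol and anthocyanin decoration and transport, 8 of 14 tested genes were lower in rdd than in Col-0 in control and 0 higher, with a median of -0.41. The sinapoyltransferase SCPL10, which decorates anthocyanins, was at -1.32 ± 0.09, and the flavonol rhamnosyltransferases UGT89C1 and UGT78D1 were at -0.99 ± 0.08 and -0.55 ± 0.06 (edgeR adjusted p of 3.3e-09 or less). With YC4-R4 in rdd, 6 of the 14 rose and 0 fell, among them GSTF12, which carries anthocyanins and tannin precursors toward the vacuole (1.45 ± 0.22), UGT78D1 (0.43 ± 0.06) and UGT89C1 (0.35 ± 0.08; edgeR adjusted p of 0.001 or less). In YC4-R4 soil UGT89C1 was still lower in rdd than in Col-0 (-0.40 ± 0.08; edgeR adjusted p = 8.6e-05), and it stood at 24.6 ± 0.760, 20.9 ± 0.429, 12.4 ± 1.27 and 15.8 ± 0.683 CPM in the order of groups. With YC4-R4 in Col-0, 4 of the 14 fell and 1 rose, UGT78D1 being at -0.32 ± 0.06 and BGLU6 at 0.36 ± 0.09 (edgeR adjusted p of 0.00244 or less). The number that fell was 2 with DESeq2 or without replicate 2 of Col-0 control or of Col-0 YC4-R4. The number that rose was 2 with only the groups compared. For the interaction, to which both genotypes contribute, 7 of the 14 were higher and 0 lower. SCPL10, UGT89C1 and GSTF12 each overlap another annotated gene, which leaves their counts less certain. The same holds for CHI2, MYB11, REF1, UVR2, PYK10 and CASP1, named below.

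Among the other flavonoid core genes, 1 of 5 tested was lower and 1 higher in rdd in control. These counts are near the shares over all tested genes, 23.0% and 20.9%. CHIL, a chalcone isomerase-like protein that aids CHS, moved as CHI did, at 11.6 ± 1.35, 12 ± 0.366, 7.07 ± 0.543 and 11.5 ± 1.22 CPM in the order of groups. It was at -0.71 ± 0.11 for rdd against Col-0 in control and 0.69 ± 0.11 for YC4-R4 in rdd (edgeR adjusted p = 2.3e-06 and 5.6e-06). FLS5, a relative of FLS1, was higher in rdd in control (0.23 ± 0.05; edgeR adjusted p = 1.3e-04). CHI2, a further isomerase-like gene, had 0 counts in all 12 libraries, which allows a level of up to 0.014 CPM. With YC4-R4 in rdd, CHIL was the 1 of 5 that rose, and 0 fell.

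In the general phenylpropanoid entry, which also feeds lignin and sinapate, 3 of 8 genes were lower and 1 higher in rdd in control. Over all tested genes the shares were 23.0% and 20.9%. The coumarate-CoA ligase gene 4CL3, the family member linked to flavonoids, stood at 14.3 ± 1.65, 11.2 ± 0.912, 7.14 ± 0.148 and 10.3 ± 0.215 CPM in the order of groups. It was at -1.0 ± 0.10 for rdd in control and 0.53 ± 0.11 for YC4-R4 in rdd (edgeR adjusted p = 4.5e-10 and 2.0e-04). PAL3, a phenylalanine ammonia-lyase gene, went the other way, at 0.67 ± 0.07 for rdd in control and -1.15 ± 0.08 for YC4-R4 in rdd (edgeR adjusted p = 1.6e-09 and 8.5e-15). In the sinapate and lignin branches, 9 of 12 tested genes were lower and 2 higher in rdd in control, beside the same shares. The 9 lower included the sinapate glucosyltransferase UGT84A2 (-0.89 ± 0.09), SNG1 (-0.38 ± 0.03) and HCT (-0.33 ± 0.04; edgeR adjusted p of 1.9e-08 or less). UGT84A2 rose with YC4-R4 in rdd (0.89 ± 0.09; edgeR adjusted p = 1.2e-10). The higher genes were CSE (0.28 ± 0.05; edgeR adjusted p = 6.7e-06) and REF1 (0.10 ± 0.04; edgeR adjusted p = 0.0467), and the number higher was 1 with RLE size factors, DESeq2, no filter on low counts or any 1 of the 9 libraries outside rdd YC4-R4 left out.

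Of the other activators, 8 of 12 were tested, and MYB11, PAP2, MYB113 and MYB114 were not, with at most 10 counts in a group. HYH, a bZIP factor close to HY5, was at -1.29 ± 0.21 for rdd in control (edgeR adjusted p = 2.5e-06) and 0.84 ± 0.22 for YC4-R4 in rdd (edgeR adjusted p = 0.00245), a call lost without rdd YC4-R4 replicate 3 (0.60, adjusted p = 0.0529). HY5 itself, which activates flavonoid genes in light, had an interaction of 1.03 ± 0.22 (edgeR adjusted p = 3.9e-04). BBX22 and BBX21, the latter a partner of HY5, fell with YC4-R4 in rdd (-0.41 ± 0.07 and -0.32 ± 0.06, edgeR adjusted p = 6.3e-06 and 1.1e-04). With YC4-R4 in rdd 2 of the 8 tested activators rose and 2 fell, against 15.1% and 17.1% of all tested genes. BBX21 was higher in rdd in control (0.66 ± 0.06; edgeR adjusted p = 1.1e-10). In that comparison BBX21 was the 1 activator called higher, and HY5 and HYH the 2 called lower. HY5 was at -0.43 ± 0.16 (edgeR adjusted p = 0.0275), but it was no longer called with DESeq2 (adjusted p = 0.0746) or without Col-0 control replicate 1 (-0.25, adjusted p = 0.265) or rdd control replicate 2 (-0.42, adjusted p = 0.0707) or 3 (-0.36, adjusted p = 0.115). The number of activators called higher was 2 with no filter on low counts, with the replicate block, with only the groups compared, and without Col-0 control replicate 1, rdd control replicate 2 or any 1 of the rdd YC4-R4 libraries.

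All 16 genes of the list of repressors and turnover were tested, and they moved in both directions. For rdd in control, 5 were higher and 7 lower, against 20.9% and 23.0% of all tested genes. KFB01, an F-box protein that marks phenylalanine ammonia-lyase for breakdown, was at 2.12 ± 0.06, its relative KFB20 at -0.60 ± 0.04 and SPA1, a partner of the light repressor COP1, at -1.2 ± 0.05 (edgeR adjusted p of 5.3e-14 or less). KFB01 stood at 19.2 ± 1.09, 41.8 ± 2.62, 83.6 ± 4.39 and 51.6 ± 0.949 CPM in the order of groups. With YC4-R4 in Col-0, 11 of the 16 fell and 3 rose, against 16.9% and 12.9% of all tested genes. Of the 10 genes of the set, 2 rose there. KFB20 was at -1.54 ± 0.05, MYBL2, a MYB repressor of anthocyanin genes, at -1.23 ± 0.06 and KFB-CHS, which marks CHS for breakdown, at -0.99 ± 0.04 (edgeR adjusted p of 1.4e-18 or less). With YC4-R4 in rdd, 9 of the 16 fell and 5 rose, against 17.1% and 15.1% of all tested genes, and 5 genes of the set rose. KFB01 was at -0.70 ± 0.05, KFB20 at -0.59 ± 0.05 and LBD38 at -0.61 ± 0.05 (edgeR adjusted p of 3.4e-12 or less). The number of the 16 that rose was 2 with DESeq2 or without rdd control replicate 1. It was 3 without rdd YC4-R4 replicate 1 or 3. The part of the repressors and turnover genes in the levels of the set was not tested. In the light and UV-B list, 2 of 7 tested genes were higher and 4 lower for rdd in control, against the same 20.9% and 23.0%. The 2 higher were RUP1, a repressor of the UV-B receptor, at 1.08 ± 0.15 and the photolyase UVR3 at 0.76 ± 0.10. The 4 lower were ELIP1 (-2.63 ± 0.59), RUP2 (-0.65 ± 0.15), UVR2 (-0.60 ± 0.19) and the receptor UVR8 (-0.26 ± 0.04). The edgeR adjusted p was 4.4e-06 or less for RUP1, UVR3 and UVR8 and 0.00869 or less for the others. ELIP1 had 34 counts over Col-0 control and 5 over rdd control.

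**Figure D4:**
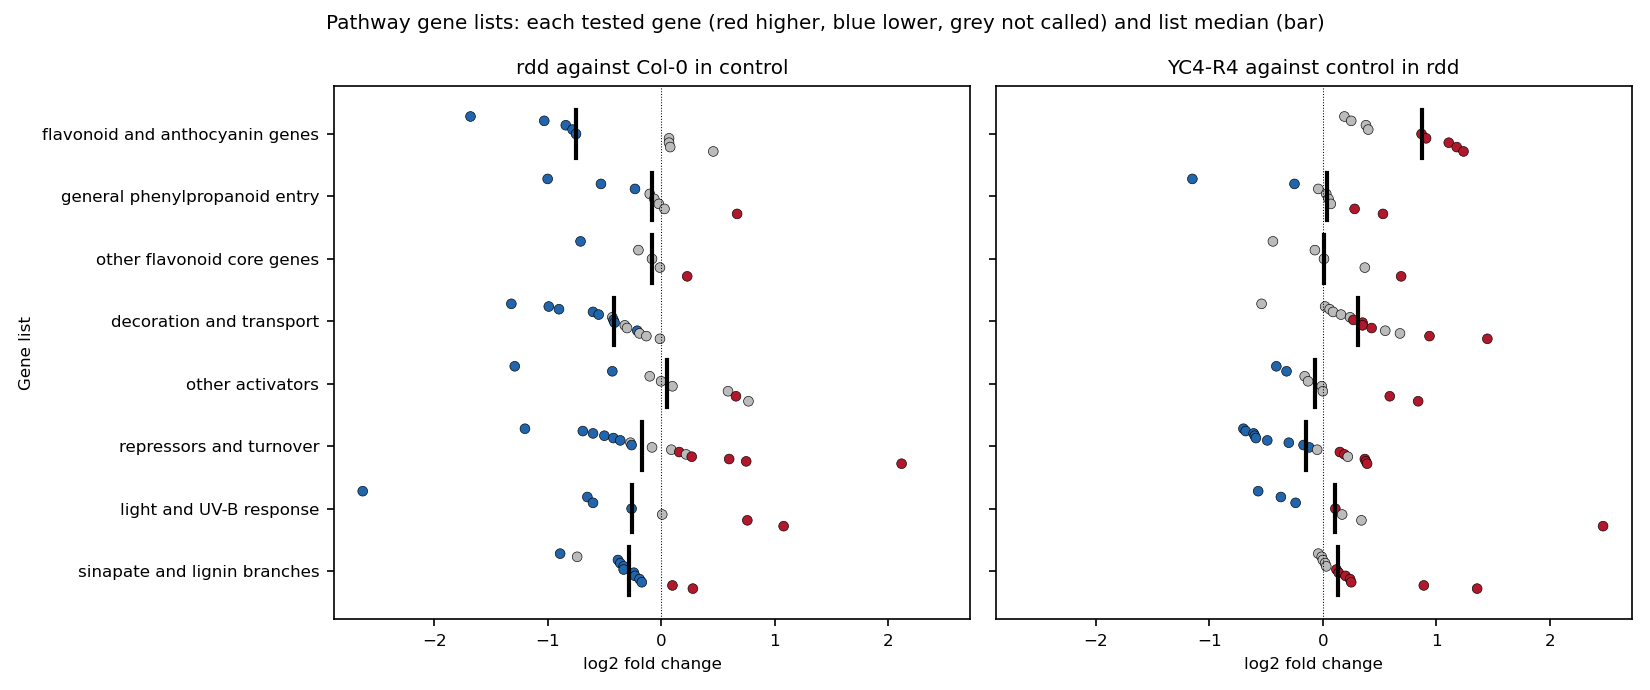
Log2 fold changes (x axis) of each tested gene of the 10-gene set and the 7 pathway lists (y axis) for rdd against Col-0 in control and for YC4-R4 against control in rdd; red and blue points were called higher and lower, grey points were not called, and black bars are list medians. The set has a median of -0.75 on the left and 0.87 on the right, while the repressor list spreads to both sides of 0 in both panels.

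Markers of organs moved in these comparisons as well. Of 5 leaf markers, 4 were lower in rdd in control, against 23.0% of all tested genes. The summed level of the 5 was 20800 to 22300 CPM in Col-0 control and 15200 to 16500 in rdd control. It was 16800 to 17300 CPM in Col-0 YC4-R4 and 15000 to 15600 in rdd YC4-R4. LHCB2.1 was at -0.75 ± 0.05 for rdd in control (edgeR adjusted p = 2.5e-16), in a family of near-identical copies. With YC4-R4, all 5 leaf markers fell in Col-0, while in rdd 3 fell and RBCS1A rose, LHCB2.1 being at -0.67 ± 0.05 and -0.42 ± 0.05 (edgeR adjusted p = 1.2e-14 and 1.7e-09). Of 7 tested root markers, 5 were higher and PYK10 was lower in rdd in control, against 20.9% and 23.0% of all tested genes. RHD6 was at 1.36 ± 0.29 and PYK10 at -0.28 ± 0.03 (edgeR adjusted p = 2.3e-04 and 4.1e-09). The number higher was 3 without Col-0 control replicate 1 or rdd control replicate 1. With YC4-R4 in rdd, 3 root markers fell and 0 rose: RHD6 was at -1.2 ± 0.28, MRN1 at -0.83 ± 0.16 and CASP1 at -0.34 ± 0.09 (edgeR adjusted p of 0.00243 or less). With YC4-R4 in Col-0, MRN1 rose and PYK10 and CASP1 fell, and the number higher was 0 without Col-0 control replicate 2 or 3 or Col-0 YC4-R4 replicate 3, while the number lower was 1 with DESeq2, without Col-0 control replicate 2 or 3 or without any 1 of the Col-0 YC4-R4 libraries. The summed root level, most of it PYK10, was 1150 to 1180 CPM in Col-0 control and 958 to 1010 in rdd control, and with YC4-R4 1040 to 1060 in Col-0 and 985 to 1000 in rdd. The part of the organ markers in the flavonoid results was not tested.

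Developing seeds make tannins through CHS, DFR and LDOX, so seed markers were followed too. The 8 seed storage genes summed to at most 0.562 CPM in any library, with CRU2, CRU3 and SESA3 at 0 throughout. In the seed coat list TT1 had 0 counts and BAN, the tannin branch reductase, had 1 to 5 counts per group, and the 7 genes summed to 5.56 to 9.00 CPM, most of it TTG2, which was at 5.52 ± 0.57 CPM in Col-0 control and 4.86 ± 0.372 CPM in rdd control. TT10, a laccase of the seed coat, was the 1 of 3 tested that was higher in rdd in control (1.15 ± 0.38; edgeR adjusted p = 0.0142), a call lost without Col-0 control replicate 1 (0.82, adjusted p = 0.116) or rdd control replicate 1 (1.02, adjusted p = 0.0565) or 3 (1.05, adjusted p = 0.0584). The 6 floral organ markers summed to 1.68 to 1.87 CPM in Col-0 control, 2.81 to 3.37 in Col-0 YC4-R4, 2.15 to 2.25 in rdd control and 1.55 to 2.98 in rdd YC4-R4. The 1 tested was not called in any of the 5 comparisons. Without rdd YC4-R4 replicate 2, 1 floral marker was called higher with YC4-R4 in rdd, and with no filter on low counts 1 was called higher with YC4-R4 in Col-0 and 1 lower in rdd than in Col-0 in YC4-R4. The part of the seed and floral markers in the flavonoid results was not tested.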

How the data were processed

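Whole-number read counts per gene were used as the authors deposited them, 1 column per library in 12 libraries. Per the submitters' processing notes the tools were Trimmomatic 0.36, HISAT2 2.1.0 and HTSeq 0.9.1 with genome build TAIR10. The kit keeps strand, per the labels' protocols; whether HTSeq counted by strand, and with which annotation release, is not given in the sources used here. Libraries were grouped by their labels. In R 4.3.3, edgeR 4.0.16 kept 20651 genes by filterByExpr, scaled by TMM and fitted a quasi-likelihood model, with a mean for each group, to all libraries, leaving 8 residual degrees of freedom. The model was also run on simulated counts, with changes placed in Col-0 YC4-R4 alone and the same spread in every group. That run does not cover the wider spread of rdd YC4-R4 or the large share of genes called here, and no result rests on it. Benjamini-Hochberg adjustment ran over all tested genes. CPM and log2 CPM (prior count of 2) were computed from the counts. Coordinates and sequences are from RefSeq's annotation of TAIR10.1. The 10 genes, 7 pathway lists and 5 marker lists (113 further genes) were chosen with earlier results of these data known. From each list at most 3 called genes with the smallest adjusted p were named in a comparison, with genes at 0 in every library. CSE, REF1, RBCS1A (YC4-R4 in rdd), TTG2 and, for rdd in control, ELIP1, RUP2 and UVR2 were added after their values were seen. Genes like CHS needed an average log2 CPM of 1 and an SD of 0.3. Alternatives were RLE size factors, DESeq2 1.42.0, no filter, only the groups compared, a replicate block and leaving out each library. They were applied to the other lists, and leaving out each library to the FLS1 to DFR ratio, after seeing the data.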

Additional observations from a re-analysis of the deposited data

Results flagged for a closer look

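For 5 genes the YC4-R4 effect differed between rdd and Col-0 by a test of the difference itself (edgeR interaction, Benjamini-Hochberg adjusted p under 0.05). Of all tested genes, 16.2% were more positive in rdd by this test and 14.4% less. The difference on the log2 scale was 1.2 for CHS, 0.99 for FLS1, 1.09 for F3H, 1.02 for CHI and 0.71 for DFR. The DFR call was lost with DESeq2 (adjusted p = 0.0787) and in some of the fits with 1 library left out. In CHS, FLS1, F3H and CHI all 3 rdd YC4-R4 libraries were above all 3 rdd control libraries. Their rise in rdd passed the test, as for 15.1% of all tested genes, while in Col-0 none of their YC4-R4 effects passed it. In DFR the 3 YC4-R4 libraries were above control in rdd and below control in Col-0, though neither effect passed the test. Groups of 3 libraries were not searched for single outlying libraries.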

How the results depend on the processing

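Over 756 member values under the alternatives, 8 calls were lost, 9 were gained and 13 values changed sign, none of the last a called value. The 5 genes lower in rdd in control and the 5 raised by YC4-R4 in rdd kept their calls under every alternative. With 1 library left out, the number of genes higher ran from 1 to 2 for YC4-R4 in Col-0 (0 to 1 lower), from 5 to 6 for YC4-R4 in rdd, from 3 to 5 for rdd against Col-0 in YC4-R4 and from 4 to 6 for the interaction. With the replicate number as a block the counts were 2 higher for YC4-R4 in Col-0, 5 in rdd and 5 for the interaction, and 5 lower for rdd in control. The numbers do not pair the libraries: same-number correlations of deviations ran from -0.0471 to 0.0316. With 1 library left out, the values that changed sign ran from -0.08 to 0.18 (CHI) and -0.01 to 0.24 (PAP1) for YC4-R4 in Col-0, and from -0.07 to 0.58 (PAP1) for YC4-R4 in rdd. For rdd in control they ran from -0.03 to 0.16 (DFR), -0.03 to 0.23 (MYB111) and -0.11 to 0.20 (LDOX), for rdd in YC4-R4 from -0.10 to 0.09 (F3'H) and for the interaction from -0.21 to 0.43 (PAP1). The difference in the log2 ratio of FLS1 to DFR, with 1 library left out, ran from 0.43 to 0.83 for YC4-R4 in Col-0, 0.86 to 1.04 in rdd, -0.98 to -0.79 for rdd in control and -0.75 to -0.35 in YC4-R4. The cause of these moves was not tested. Depth limits PAP1 and MYB12 most.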
